A study of Arabidopsis thaliana with 72 samples.

Results

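Roots of Arabidopsis thaliana held at 10 kPa for 48 or 72 h were set against roots held at the same pressure for 1 or 3 h. The comparison rests on 12 of the 72 arrays of the series, chosen by tissue, pressure and time as the labels give them: 6 late arrays (3 of 48 h and 3 of 72 h) and 6 early arrays (3 of 1 h and 3 of 3 h). All plants were of the ecotype Wassilewskija, with no mutation or transgene named, were 10 days old when moved into the chambers and stood in constant light. The 10 kPa atmosphere held 2.1 kPa oxygen and the 97 kPa control atmosphere 21 kPa, both with 0.05 kPa carbon dioxide, so low total pressure and low oxygen cannot be told apart. Late and early roots shared that low-pressure, low-oxygen air and differed in how long they had been in it, and also in age. Each replicate was 1 tube of about 12 pooled plants from a chamber of its own, and the chambers of a treatment ran at the same time. Roots at 97 kPa, 6 late and 6 early arrays, and shoots at 10 kPa, 6 late and 6 early arrays, serve as the comparisons below. For the control, 97 kPa is the pressure of the titles and protocols, and 101 kPa that of the sample descriptions.

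Plant cells short of oxygen make ATP by glycolysis and regenerate NAD+ by fermentation, in which pyruvate decarboxylase and alcohol dehydrogenase or lactate dehydrogenase take part. A core group of genes is switched on within hours of low oxygen in most plant organs, under ethylene response factors of group VII whose protein is destroyed when oxygen is present. Roots depend on sugar from the shoot, take part of their growth from wall-loosening proteins such as expansins, and over longer stress can remodel walls, transport and storage reserves. The comparison of late with early roots asks which transcript levels differed after days in the same atmosphere from those of the first hours.

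Values are MAS5 array signals, scaled so that the trimmed mean of each array was 500. Changes are differences in log2(signal + 8.9), late minus early, with the standard error (SE) of a limma model over the 36 root arrays. The words rose and fell are used where the Benjamini-Hochberg adjusted p over the 16667 tested probe sets was below 0.05. The late arrays were less alike and differed in RNA quality: the lowest correlation with another array of the same group was 0.868 to 0.920 in late arrays and 0.940 to 0.959 in early arrays, and the GAPDH 3′ to 5′ signal ratio was 92.2 to 433 in late and 62.9 to 105 in early arrays. The actin ratio ran the other way, at 41.9 to 59.2 in late and 62.3 to 90.2 in early arrays. Array numbers in the descriptions followed time within 10 kPa roots except for 72 h replicate 2, so order of processing and time cannot be told apart; without that array and the 97 kPa array numbered with it 4760 probe sets were called in place of the 4847 given below. The labelled tissue matched the data: 623 probe sets with at least 10-fold higher signal in 97 kPa roots than in 97 kPa shoots had a median log2 level of 8.72 to 9.33 in late and 9.04 to 9.21 in early 10 kPa root arrays, against 4.76 to 5.76 in 10 kPa shoots. Signals of shoot genes were nevertheless higher in late roots. Among 348 tested probe sets that were at least 10-fold higher in 97 kPa shoots than roots, 154 rose and 16 fell, with a median change of 0.71. The 8 nuclear photosynthesis probe sets, which serve as the shoot mesophyll markers, summed to a signal of 13400 to 24700 in late and 2878 to 8677 in early 10 kPa roots, against 140900 to 209900 in 10 kPa shoots, and none of the 8 was at 0. In 97 kPa roots the sums were 4992 to 17580 at late and 4219 to 6275 at early times. In these whole-root extracts fewer cells of a type and less RNA per cell cannot be told apart.

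**Figure D1:**
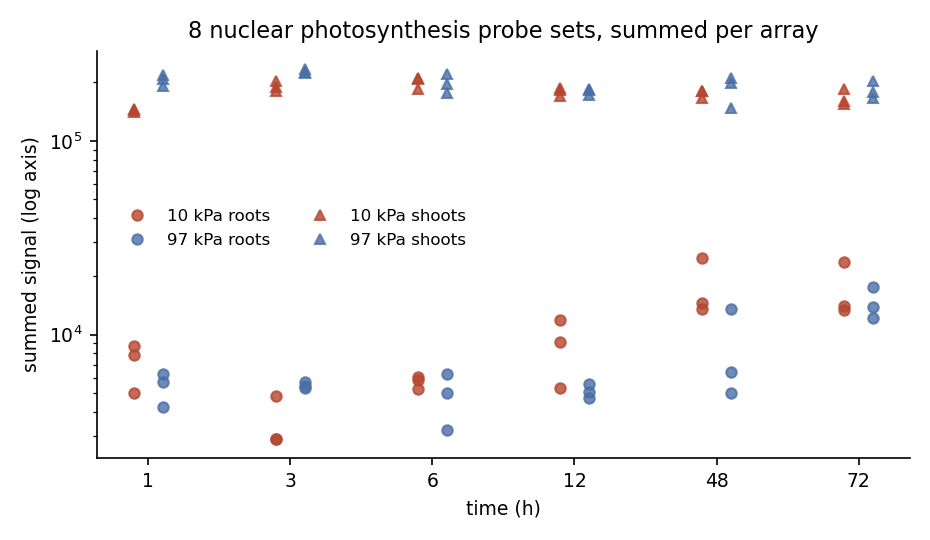
Summed MAS5 signal of the 8 nuclear photosynthesis probe sets (log axis) on each array against hours of treatment, with circles for roots, triangles for shoots, separate colours for 10 and 97 kPa and 1 mark per array. The late 10 kPa root arrays lie between 13400 and 24700, above all early 10 kPa root arrays, which lie between 2878 and 8677.

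Late roots differed from early roots in a large part of the transcriptome. Of 16667 probe sets, 4847 were called (29.1%), with 2278 higher (13.7%) and 2569 lower (15.4%) in late roots. The median change of all probe sets was 0.0145. Changes of at least 2-fold were found for 648 risen and 421 fallen probe sets. In 819 risen (4.91%) and 944 fallen (5.66%) probe sets all 6 late values lay beyond all 6 early values. Adding to the model the mean log2 level of the 519 shoot-enriched probe sets on each array, a covariate chosen after the data were seen, left 1069 called, 906 of them with the call they had without it; the median SE was then 0.322 in place of 0.191. Of 104 called genes of the lists and named below that were followed through it, 78 lost their call. With the mean log2 3′ to 5′ ratio as a covariate 3042 were called. The part of shoot RNA and of RNA quality in the single changes was not tested beyond these fits.

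The core low-oxygen genes were lower in late than in early roots. Of 49 loci of the list, 24 had a probe set named for 1 gene, and all 24 passed the filter on low signals. Among them 14 fell, against 15.4% of all probe sets, and 2 rose, against 13.7%. The median change was -0.72 against 0.0145 for all probe sets. With the shoot-enriched signal as a covariate 8 fell and 3 rose; with 48 h alone set against early roots 8 fell, and with late roots set against 3 h alone 9 fell. PDC2, which encodes a pyruvate decarboxylase of ethanolic fermentation, had signals of 423, 632 and 863.3 (lowest, median and highest) in late roots and of 1610, 2402 and 3742 in early roots. Its late and early values do not overlap by the rule that chose PDC2 among the largest changes. PDC2 fell by 1.97 (SE 0.15, limma adjusted p = 4.77e-12). HRA1 (AT3G10040), an attenuator of the hypoxia response, had 66.27, 184.2 and 507.9 in late roots and 475.4, 860.4 and 1571 in early roots. The highest late value passed the lowest early one, and HRA1 fell by 2.13 (SE 0.44, limma adjusted p = 3.51e-04). CML38, a calmodulin-like calcium sensor, had 209.5, 823.6 and 1357 in late roots and 1133, 2080 and 2753 in early roots, again with some overlap, and fell by 1.59 (SE 0.38, limma adjusted p = 0.00164). Its call was lost with 48 h alone (-1.18, adjusted p = 0.0739) and with the shoot-enriched signal as a covariate (-0.16, adjusted p = 0.912).

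AT2G41730 had an intermediate maximum, with a mean signal of 4550 at 6 h and 4734 at 12 h in 10 kPa roots. Its lowest, median and highest signals were 215.8, 254.5 and 404.2 in late roots and 996.6, 1469 and 1975 in early roots, and it fell by 2.36 (SE 0.27, limma adjusted p = 3.41e-08). Its level in late roots was thus below the level in early roots after a higher one in between. The remaining fallen members lost between 0.51 and 1.54 on the log2 scale. Among them AT1G19530 had 2931, 3390 and 4295 in late and 4571, 7662 and 13480 in early roots, which did not overlap. AT5G10040 had 12480, 17550 and 21600 in late and 24310, 27800 and 30730 in early roots, so the groups were separate although the change was only -0.71 (limma adjusted p = 0.0489). AT3G29970 and AT3G03270 were the members that rose, and the other eight did not pass in either direction. AT3G29970 had 18910, 33080 and 44740 in late roots and 3074, 7339 and 15420 in early roots, with no overlap, and rose by 2.19 (SE 0.28, limma adjusted p = 2.51e-07). AT3G03270 had 12190, 29420 and 32170 in late roots and 5681, 9693 and 17040 in early roots, which overlapped, and rose by 1.301 (SE 0.17). The mean signal of AT3G29970 had reached 32070 by 6 h and was 33680 at 48 h and 32220 at 72 h.

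**Figure D2:**
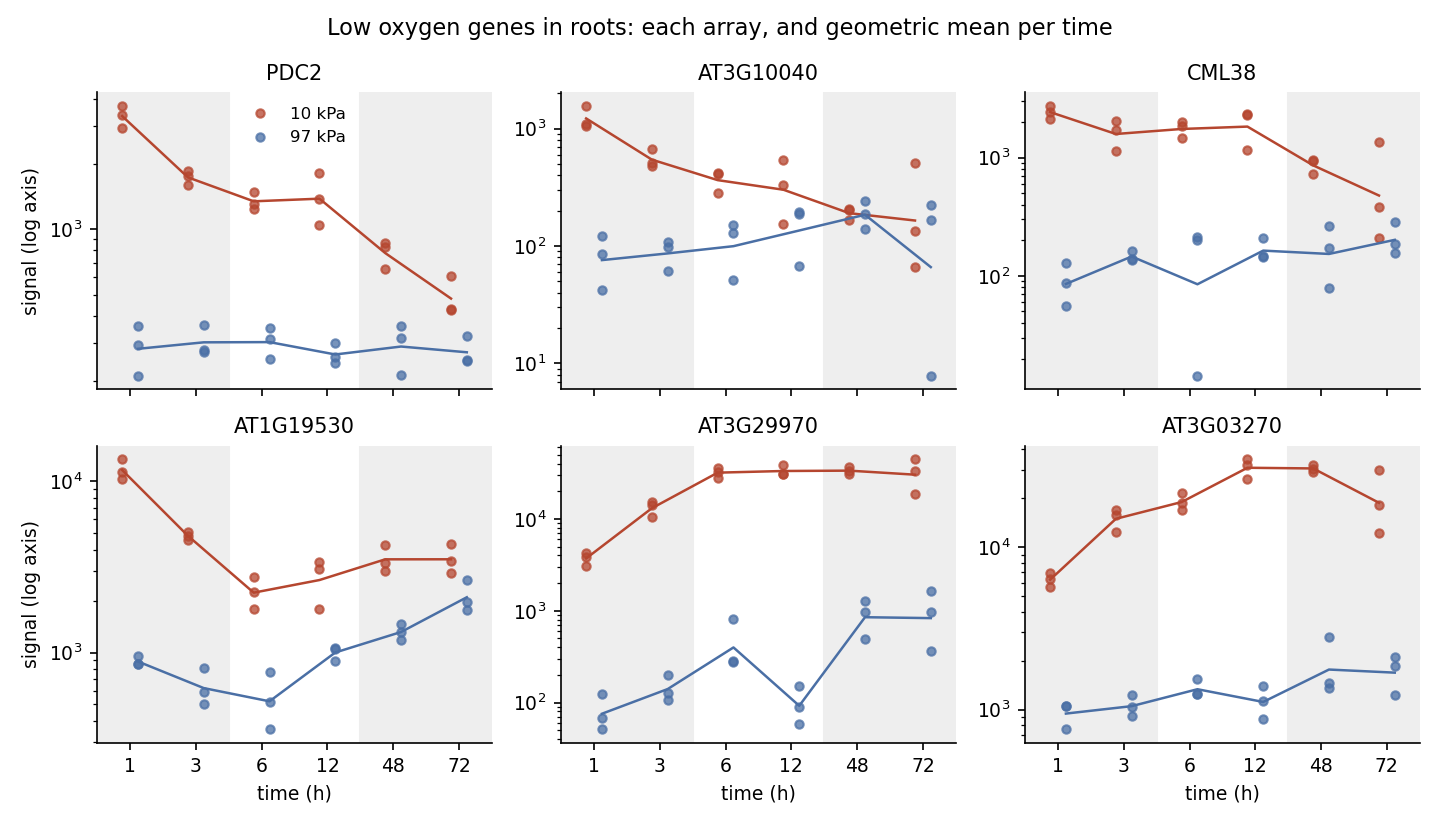
MAS5 signal (log axis) of low-oxygen genes against hours of treatment in 10 kPa and 97 kPa roots, with points for arrays, lines through geometric means and grey bands over the early (1 and 3 h) and late (48 and 72 h) times. PDC2 at 10 kPa lies between 423 and 863.3 in the late band and between 1610 and 3742 in the early band, and its 97 kPa group means lie between 265.3 and 304.2.

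At late times most low-oxygen genes had higher group means at 10 kPa than at 97 kPa, a difference that was not tested. PDC2 averaged 783.2 at 48 h and 486.3 at 72 h in 10 kPa roots, against 294.6 and 272.7 in 97 kPa roots. Over the 24 members the median of the log2 level at 10 kPa minus that at 97 kPa was 3.82 at 1 h, 3.035 at 3 h, 3.445 at 6 h, 3.585 at 12 h, 2.08 at 48 h and 1.25 at 72 h. In 10 kPa roots 23 members lay above 97 kPa roots at 72 h, 15 of them by more than 2-fold, and 23 lay above at 1 h, all 23 by more than 2-fold. In 97 kPa roots 12 of the 24 rose and none fell between early and late times, with a median change of 0.57. There 24.1% of all probe sets were called, 11.5% higher and 12.6% lower. The test of the difference between the changes at 10 and at 97 kPa called 5.18% of probe sets, 2.19% higher and 2.99% lower; among the 24 members 16 were lower and none higher, with a median difference of -1.55. The lowest adjusted p among them was that of AT1G19530, which fell by 1.09 at 10 kPa and rose by 1.16 at 97 kPa (difference -2.25, limma adjusted p = 8.72e-09).

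Tested genes of the fermentation and glycolysis list were lower in late roots. The given annotation names 6 probe sets of the 25 loci of this list. All 6 fell, against 15.4% of all probe sets, with a median of -0.79. With the 3′ to 5′ ratio as a covariate 3 still fell, and with the shoot-enriched signal 2. With 48 h alone or against 1 h alone 3 fell. Beside PDC2, AT4G17260 had 453.6, 697.3 and 816.7 in late and 1371, 1476 and 1697 in early roots, with a wide gap, and fell by 1.18 (SE 0.19, limma adjusted p = 9.20e-06). AT4G14695, a mitochondrial pyruvate carrier that the list also holds, had 81.89, 120.7 and 146.4 in late and 176.7, 215.9 and 266.9 in early roots. It fell by 0.87 (SE 0.20), and its mean level at 10 kPa was below that at 97 kPa at every time. GAPC2, a cytosolic glyceraldehyde-3-phosphate dehydrogenase, fell by 0.70 (SE 0.18), AT5G42740 by 0.62 (SE 0.21) and TPI, a triosephosphate isomerase, by 0.37 (SE 0.11). The call of GAPC2 was lost in 5 of 28 settings, among them 48 h alone and against 1 h alone. At 48 h 5 of the 6 genes had higher means at 10 kPa than at 97 kPa, 3 of them by more than 2-fold. At 72 h 4 did, 1 by more than 2-fold, which was not tested. Of the 6, AT4G14695, GAPC2 and TPI also fell in 97 kPa roots, by 1.09, 0.58 and 0.65. The difference between the pressures passed the test for PDC2 (-1.91, limma adjusted p = 9.945e-08) and AT4G17260 (-1.10, limma adjusted p = 0.00922).

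The largest rise among named genes was that of ICL, which encodes isocitrate lyase of the glyoxylate cycle, the route by which carbon from stored lipid can be turned into sugar. ICL had signals of 287.9, 668.5 and 1174 in late roots and 5.144, 12.25 and 83.31 in early roots, where the median lay close to the 8.9 added before the logarithm. By the rule that chose ICL among the largest changes no early array reached a late one. The change was 4.44 (SE 0.62, limma adjusted p = 1.09e-06). At 10 kPa its group means were 33.66 at 1 h, 28.72 at 3 h, 76.5 at 6 h, 458.2 at 12 h, 864.6 at 48 h and 541.7 at 72 h. They lay between 11.5 and 53.12 at all times in 97 kPa roots. The difference between the pressures was 3.92 (limma adjusted p = 0.00489). ICL was the one risen gene of the 4 tested for the glyoxylate cycle and lipid breakdown. PPDK, pyruvate orthophosphate dikinase, which links pyruvate to phosphoenolpyruvate, had 5.164, 40.91 and 164.3 in late and 47.9, 105 and 224.6 in early roots, with overlap, and fell by 1.22 (SE 0.45, limma adjusted p = 0.0397). The call of PPDK was lost in 13 of 25 alternative settings, among them those without 48 h replicate 3, 72 h replicate 1 or 2, 1 h replicate 2 or 3, or 3 h replicate 1 or 2.

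Of the 12 largest increases with separate groups, 10 carry only a locus name in the given tables. AT5G48490 had 967.2, 1341 and 1850 in late and 54.63, 99.81 and 174.5 in early roots, a rise of 3.63 (SE 0.30, limma adjusted p = 4.53e-11). AT5G14650 had 724.3, 1177 and 1536 in late and 38.95, 82.85 and 192.8 in early roots, a rise of 3.55 (SE 0.43). AT3G14395 had 1804, 2130 and 4167 in late and 283.5, 374.9 and 401.9 in early roots, and its rise of 2.64 had the smallest error of the 12 (SE 0.16, limma adjusted p = 1.90e-14). By the rule that chose them the late and early values of these genes do not overlap. AT1G62500 was among the brightest, with 3778, 4484 and 9349 in late and 121.9, 866.8 and 1300 in early roots, a rise of 3.04 (SE 0.31). AT2G43530 had 1705, 2605 and 5046 in late and 171.8, 241.5 and 484.8 in early roots, a rise of 3.35 (SE 0.35). AT1G60590 rose by 3.49 (SE 0.55), AT5G59305 by 2.78, AT5G38980 by 2.76, AT3G63360 by 2.69 and AT1G21500 by 2.50 on the log2 scale. DFR, dihydroflavonol 4-reductase of anthocyanin synthesis, had 295.3, 481.6 and 952.9 in late and 18.32, 93.58 and 168.2 in early roots and rose by 2.75 (SE 0.43, limma adjusted p = 8.34e-06). With the shoot-enriched signal as a covariate 5 of the 12 lost their call: AT1G60590 (change 0.88, adjusted p = 0.566), DFR (1.48, adjusted p = 0.221), AT5G59305, AT5G38980 and AT1G21500.

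The steepest fall among named genes was that of EXLB2 (AT4G30380), an expansin-like gene. It had 7.13, 104.2 and 139.7 in late roots and 626.9, 656.6 and 796.4 in early roots, and fell by 3.42 (SE 0.53, limma adjusted p = 6.05e-06; -2.83 and adjusted p = 0.0579 with the shoot-enriched signal as a covariate). Its means at 10 kPa were 648.1, 721.4, 228.4, 132.1, 81.09 and 83.41 from 1 to 72 h, while no 97 kPa mean passed 11.26. BZIP61, a basic leucine zipper transcription factor, had 34.38, 96.31 and 261.8 in late roots and 501.3, 595.8 and 781.9 in early roots, a fall of 2.67 (SE 0.17, limma adjusted p = 4.96e-14). SWEET11, which exports sucrose from cells, had 268.8, 632.8 and 728.4 in late roots and 1286, 2686 and 4338 in early roots, a fall of 2.11 (SE 0.20, limma adjusted p = 1.09e-09). The late and early values of each were apart by the rule that chose them. BBM (BABY BOOM), an AP2 transcription factor of stem cell identity, had 10.37, 18.65 and 108.5 in late and 115.2, 159.7 and 165.7 in early roots, a fall of 1.98 (SE 0.45, limma adjusted p = 9.99e-04; -0.89 and adjusted p = 0.535 with the shoot-enriched signal as a covariate). The other seven beside PDC2 are known here by locus: AT1G70985 (-2.51), AT5G46670 (-2.45), AT1G13730 (-2.38), AT2G41730 of the low-oxygen list (-2.36), AT1G16040 (-2.06), AT3G49190 (-2.03) and AT5G10130 (-2.02). With that covariate AT1G70985, AT1G16040 and AT5G10130 lost their calls as well.

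**Figure D3:**
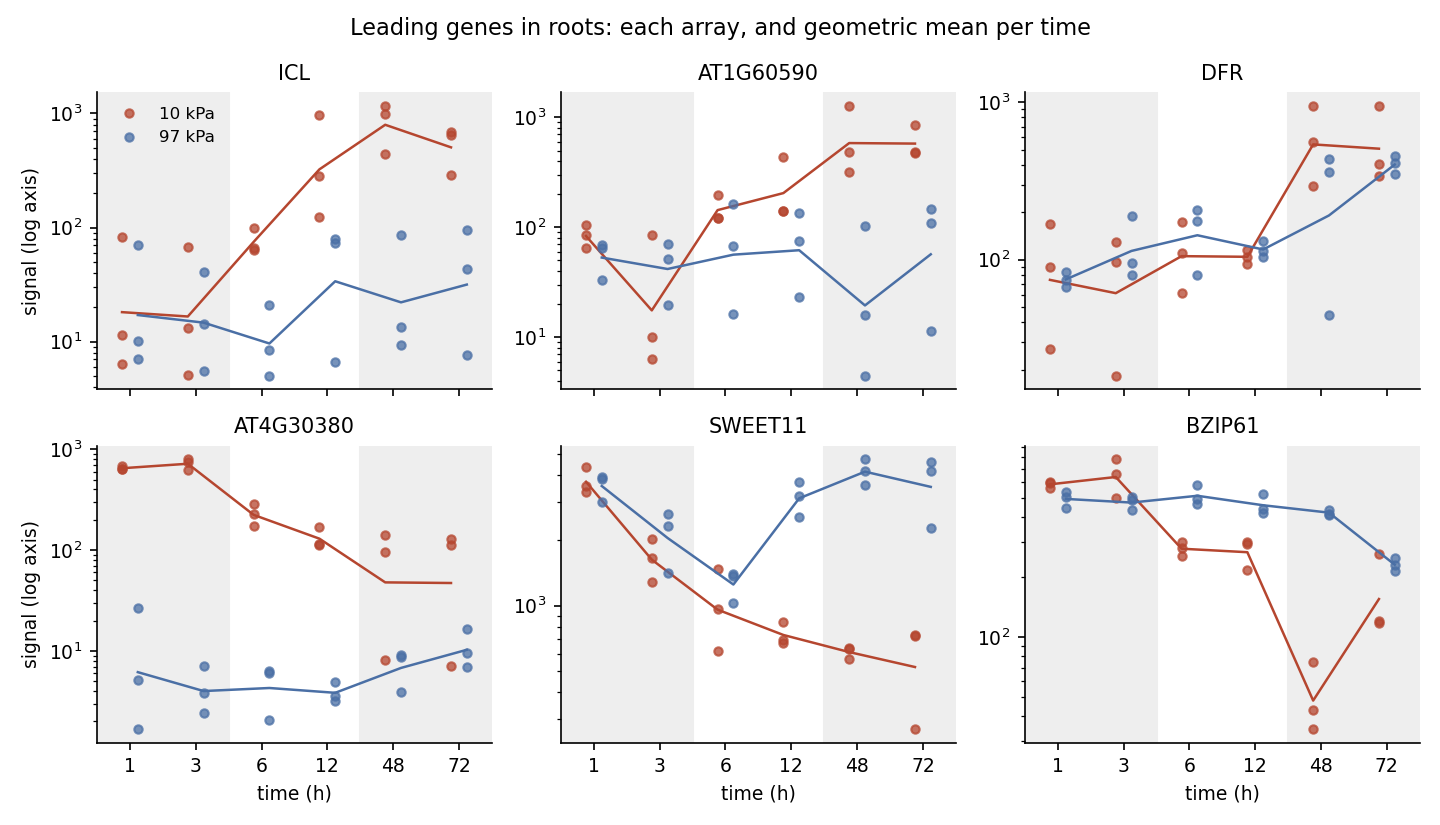
MAS5 signal (log axis) of genes with the largest late minus early changes against hours of treatment, drawn as in the plot of the low-oxygen genes, with 10 kPa and 97 kPa roots in separate colours. ICL climbs between 6 h (arithmetic mean 76.5) and 12 h (458.2) at 10 kPa, and SWEET11 has arithmetic means of 573.1 at 10 kPa and 3694 at 97 kPa at 72 h.

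Cell wall genes were called in both directions, as were all probe sets, of which 13.7% rose and 15.4% fell. Of 16 tested expansins, which loosen walls without breaking their polymers, 4 rose and 4 fell. With the shoot-enriched signal as a covariate 3 rose and 0 fell. The number that fell was 2 without 3 h replicate 3 or with 72 h alone, and 1 with 48 h alone. EXPB2, a beta-expansin, had 125.9, 479.5 and 532.8 in late and 17.28, 72.72 and 141.5 in early roots, overlapping slightly, and rose by 2.35 (SE 0.54, limma adjusted p = 0.00101). EXPA8, an alpha-expansin, had 296.5, 426 and 513.9 in late and 97.49, 125.5 and 198.2 in early roots, all late values being higher, and rose by 1.56 (SE 0.27, limma adjusted p = 3.37e-05). With the shoot-enriched signal as a covariate neither was called, with EXPB2 at 1.37 (adjusted p = 0.411) and EXPA8 at 1.16 (adjusted p = 0.131). Beside EXLB2, the expansin-like EXLA2 fell by 1.12 (SE 0.31) at 10 kPa while its change at 97 kPa was 0.43 and did not pass, a difference of -1.55 (limma adjusted p = 0.0310). The root hair expansins EXPA7 and EXPA18 did not pass the test at 10 kPa, with changes of 0.43 and -0.10. At 97 kPa EXPA7 fell by 0.84 (limma adjusted p = 0.0184) and EXPA18 by 1.02 (limma adjusted p = 0.00573), and the difference between the pressures passed for EXPA7 (1.27, limma adjusted p = 0.0388) and not for EXPA18 (0.92, limma adjusted p = 0.178).

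Enzymes that cut and rejoin xyloglucan showed 2 decreases and 1 increase among 8 tested, where 15.4% of all probe sets fell and 13.7% rose. XTH21 had 11.79, 65.77 and 205.5 in late and 163.8, 235.5 and 403.3 in early roots, with some overlap, and fell by 1.75 (SE 0.34, limma adjusted p = 1.59e-04). XTH19 fell by 0.90 and XTH32 rose by 0.43. None of the 3 was called with the shoot-enriched signal as a covariate, with changes of -1.59, -0.29 and 0.02193 for XTH21, XTH19 and XTH32; XTH19 and XTH32 also lost the call against 1 h alone. Of 4 genes for pectin methylesterases, which alter the charge of pectin, or their inhibitors, 3 rose, against 13.7% of all probe sets. PME61 rose by 1.49, ATPMEPCRB by 1.22 and PMEPCRF by 1.21. PME61 and PMEPCRF also rose in 97 kPa roots, by 1.63 and 0.78, and none of the 3 kept its call with the shoot-enriched signal as a covariate. Both tested genes of the suberin, Casparian strip and lignin list rose. AT5G37690 had 4233, 5169 and 7870 in late and 1538, 2155 and 3144 in early roots, clear of each other, and rose by 1.26 (SE 0.15, limma adjusted p = 3.90e-08). AT2G48130 rose by 0.48 (SE 0.14), a call lost without 48 h replicate 2. Of 8 cellulose synthase and related genes 1 rose, CSLC12 by 0.89 (SE 0.31), a share near the 13.7% of all probe sets. The calls of CSLC12 (without 48 h, 1 h or 3 h replicate 1) and of ATPMEPCRB (without 1 h replicate 2) each depended on single arrays.

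Sugar transporters were called in both directions. Of 12 tested, 4 rose, against 13.7% of all probe sets, and SWEET11 alone fell, against 15.4%. The median was 0.70, and 2 rose with 72 h alone, with the stricter filter or with either covariate. SWEET17, a fructose carrier of the vacuole membrane, had 1059, 1126 and 1233 in late and 509.4, 668.1 and 795.5 in early roots, entirely separate, and rose by 0.76 (SE 0.12, limma adjusted p = 5.20e-06). SAG29, also of the SWEET family, had 158.4, 184.1 and 201.9 in late and 18.42, 71.24 and 117.8 in early roots, separate as well, and rose by 1.58 (SE 0.50, limma adjusted p = 0.0161), a call lost in 8 of 27 settings, among them those without 1 h replicate 1 or 3 h replicate 2. SWEET1 rose by 0.83 and SWEET16 by 0.57. SWEET11 group means fell already within the first hours at 10 kPa, with 3751 at 1 h, 1658 at 3 h, 1018 at 6 h, 735.9 at 12 h, 611.4 at 48 h and 573.1 at 72 h. In 97 kPa roots they were 3587, 2123, 1263, 3163, 4174 and 3694 at the same times, so the low point at 6 h was followed by a return there. The pressures differed in the late minus early change by -2.61 (limma adjusted p = 9.945e-08). Of 4 genes of the sugar starvation response 1 was called: AKINBETA1, a subunit of the SnRK1 energy-sensing kinase, had 801.4, 938.7 and 1086 in late and 1167, 1286 and 1430 in early roots and fell by 0.46 (SE 0.12), against a rise of 0.43 at 97 kPa (difference -0.89, limma adjusted p = 5.42e-04).

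Transcripts of the photosynthetic apparatus were higher in late roots. Of 8 nuclear photosynthesis probe sets 7 rose, against 13.7% of all probe sets, and none fell, with a median of 1.65. In 97 kPa roots 5 rose, against 11.5% of all probe sets, with a median of 0.96. PSBW, a small subunit of photosystem II, had 3146, 4238 and 6699 in late and 573.1, 1118 and 1678 in early roots, without overlap, and rose by 2.14 (SE 0.23, limma adjusted p = 1.27e-08). PSAE-1, a subunit of photosystem I, had 3045, 4399 and 6933 in late and 545.3, 917.2 and 2206 in early roots and rose by 2.15 (SE 0.25). The antenna genes LHCB4.1, LHCB4.2 and LHCB4.3 rose by 1.57, 1.76 and 1.46. Of the 8, PSBY (1.22, limma adjusted p = 0.0168) and PSBW (1.24, limma adjusted p = 0.0199) rose more at 10 kPa than at 97 kPa by the test of the difference, and the other six did not pass it. Both called genes of chlorophyll synthesis, of 3 tested, rose: PORB, a protochlorophyllide oxidoreductase, by 2.08 (SE 0.39) and CHLM, a methyltransferase of the pathway, by 0.70 (SE 0.14). The change of PORB was 3.11 against 3 h alone and 1.05 against 1 h alone, where it was not called (adjusted p = 0.121). The 8 photosynthesis genes are also the markers of shoot tissue. With the shoot-enriched signal as a covariate none of the 8 was called and their median was 0.22. PORB was then at 0.13 (limma adjusted p = 0.922). That covariate is itself a level of genes higher in shoots, so it takes up the change of such genes whatever its source. What raised their signals was not tested.

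Organelle-encoded transcripts were measured by 13 probe sets of 8 mitochondrial loci and by 62 probe sets of the plastid genome. Of the mitochondrial probe sets 9 rose, by 0.75 to 1.88, against 13.7% of all probe sets. None fell and the median was 0.92. The gene cox1, a subunit of cytochrome c oxidase, had 3769, 4470 and 5528 in late and 1135, 2558 and 3538 in early roots, with all late values higher, and rose by 0.92 (SE 0.21, limma adjusted p = 8.01e-04). In 97 kPa roots 1 of the 13 rose, and no difference between the pressures passed the test. The number of risen mitochondrial probe sets was 5 without 48 h replicate 3 or without 72 h replicate 2, 5 with 48 h alone or against 1 h alone, 4 against 3 h alone and 0 with the shoot-enriched signal as a covariate. Of the 62 plastid probe sets 9 rose, a share near the 13.7% of all probe sets, and 1 fell, against 15.4% of all, with a median of 0.15. Rises were psbA (1.18), psbM (0.88), ccsA (0.85) and ndhK (0.81) among others, and atpB fell by 0.93, a call lost in 16 of 28 settings, among them those without 48 h replicate 1, 72 h replicate 1 or 2, 1 h replicate 2 or 3, or 3 h replicate 3. The number of risen plastid probe sets was 14 without 72 h replicate 1, 4 without 72 h replicate 3, 4 without 1 h replicate 1, 5 without 3 h replicate 2, 4 with the 3′ to 5′ ratio as a covariate and 0 with the shoot-enriched signal. Plastid and mitochondrial messages largely lack the poly(A) tail that the labelling kit primes on, so their signals stand for a part of each message pool.

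Histone and cell division genes fell in part. Of 7 histone genes 5 fell, against 15.4% of all probe sets, and none rose, with a median of -0.61, and 2 fell with the shoot-enriched signal as a covariate. HTB4, a histone H2B, had 4255, 4935 and 5526 in late and 7139, 10130 and 10750 in early roots, without overlap, and fell by 0.95 (SE 0.10, limma adjusted p = 6.74e-09). HTB1, another H2B, had 1592, 1688 and 1906 in late and 2524, 2805 and 3574 in early roots and fell by 0.74 (SE 0.09). Both also fell in 97 kPa roots, by 0.65 and 0.55. The linker histone HIS1-3 differed from them. It had 224.9, 305.3 and 480.1 in late and 272.2, 486 and 927.3 in early roots, with much overlap, and fell by 0.61 at 10 kPa while it rose by 1.04 at 97 kPa (difference -1.66, limma adjusted p = 5.37e-04). The fall of HIS1-3 at 10 kPa lost its call in 13 of 28 settings, among them those without 48 h replicate 1 or 2, 72 h replicate 3, 1 h replicate 1, or 3 h replicate 2 or 3. Of 6 cell division genes 3 fell, against 15.4% of all probe sets, and the other 3 did not pass. PRL, an MCM subunit of the replication helicase, fell by 0.73, AUR1, an Aurora kinase, by 0.63 and AT4G33400 by 0.55. With 72 h alone, or with the shoot-enriched signal as a covariate, 1 of the 6 fell.

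**Figure D4:**
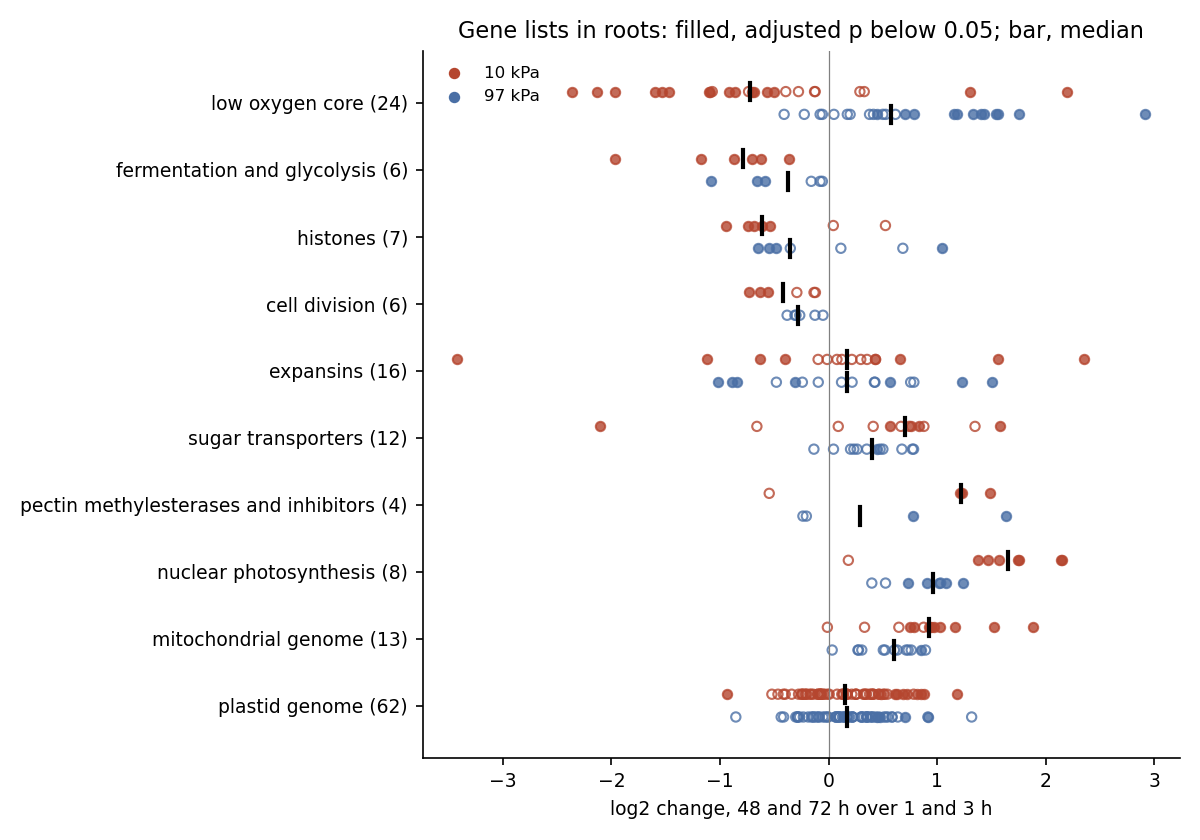
Late minus early change (log2) of the tested members of the gene lists in 10 kPa roots and in 97 kPa roots, with 1 point per probe set, filled where called, and a bar at the list median. The low-oxygen list has a median of -0.72 at 10 kPa and 0.57 at 97 kPa, and nuclear photosynthesis one of 1.65 and 0.96.

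Among hormone, calcium and transcription factor genes, EIN3, a central transcription factor of ethylene signalling, had 489.4, 857.3 and 1049 in late and 961.3, 1244 and 1357 in early roots, overlapping, and fell by 0.56 (SE 0.12, limma adjusted p = 6.96e-04); the difference from 97 kPa was -0.65 (limma adjusted p = 0.0223). Of 12 auxin genes 1 fell and 1 rose, where 15.4% of all probe sets fell and 13.7% rose. GH3.3, an enzyme that conjugates auxin to amino acids, fell by 1.47 (SE 0.47) and GH3.17 of the same family rose by 0.67 (SE 0.18). GID1A, a gibberellin receptor, fell by 0.78 (SE 0.24) and NAC014, a NAC transcription factor, by 0.66 (SE 0.19). The call of GH3.3 was lost in 7 of 27 settings, among them those without 48 h replicate 1 or 72 h replicate 2, with 72 h alone and against 3 h alone. That of GID1A was lost in 7 of 28, among them those without 72 h replicate 3, with only the 12 arrays, with 48 h alone and against 3 h alone. Calls of EIN3 and NAC014 were each lost in 3 of 28. The 3′ to 5′ ratio and the shoot-enriched signal as covariates each ended the calls of GH3.3, GID1A, EIN3 and NAC014. CML38 was the 1 called gene of 7 calcium sensors, kinases and pumps, where 29.1% of all probe sets were called. Of 6 WRKY transcription factors 3 rose, against 13.7% of all probe sets, and 1 fell, against 15.4%. WRKY47, WRKY53 and WRKY20 rose by 0.84, 0.65 and 0.40, and all 3 also rose at 97 kPa. WRKY22 fell by 0.83. The 3 rises were lost with the shoot-enriched signal as a covariate, that of WRKY20 in 10 of 28 settings (among them those without 48 h replicate 1 or 3, 72 h replicate 1, 1 h replicate 2 or 3, or 3 h replicate 2 or 3) and the fall of WRKY22 in 8 of 28 (among them those without 48 h, 72 h or 1 h replicate 2).

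Detoxification and recycling genes were divided too. Of 14 glutathione transferases, which couple glutathione to reactive compounds, 4 fell, against 15.4% of all probe sets, and 1 rose, against 13.7%. ATGSTF13 had 119.8, 259.1 and 506 in late and 397.9, 537.2 and 780.5 in early roots, with overlap, and fell by 1.15 (SE 0.20, limma adjusted p = 3.40e-05), while GSTU26, GSTU20 and GSTU28 fell by 0.90, 0.81 and 0.73. None of these 4 kept the call with the shoot-enriched signal as a covariate. Of 25 UDP sugar transferases UGT84A3, UGT88A1 and UGT84A4 rose by 1.39, 1.28 and 0.80 and 2 fell, counts no higher than the 13.7% and 15.4% of all probe sets would give. UGT71C4 was the clearer of the fallen, with 277.1, 387.2 and 424.2 in late and 566.3, 615.6 and 802.2 in early roots, a fall of 0.81 (SE 0.16) that differed from 97 kPa by -0.95 (limma adjusted p = 0.00696). Of 11 autophagy genes 4 rose, against 13.7% of all probe sets, and 2 fell, against 15.4%. With the shoot-enriched signal as a covariate 0 rose and 0 fell among these genes. Those of the ATG8 family, whose proteins sit on the forming autophagosome, were split. ATG8B, ATG8G and APG8H were up by 0.59, 0.53 and 0.43, and APG8A and ATG8C were down by 0.42 and 0.38. ATG8B and APG8H also rose in 97 kPa roots, by 0.615 and 0.36. The change of ATG8C differed from that at 97 kPa by -0.58 (limma adjusted p = 0.0465), a call lost with the 3′ to 5′ ratio as a covariate. Among antioxidant enzymes TAPX, the thylakoid ascorbate peroxidase, rose by 0.76 and ATMDAR2, a monodehydroascorbate reductase, fell by 0.43; the call of TAPX was lost in 10 of 28 settings, among them those without 48 h or 72 h replicate 3 or 3 h replicate 2. The nitrate and peptide transporter genes NPF6.2 (AT2G26690) and NPF4.4 (AT1G33440) rose by 0.87 and 0.82, 2 of 10 tested, against 13.7% of all probe sets. Neither kept its call with the shoot-enriched signal as a covariate, and NPF4.4 also lost it with 48 h alone. NPF6.2 lost it against 1 h alone, with mean log2 levels of 8.687 at 1 h, 7.292 at 3 h and 8.865 at 48 h. It also rose in 97 kPa roots, by 0.69. Both called genes of protein folding in the ER, of 3 tested, fell, CRT1b by 0.63 and ATERDJ3B by 0.29, and both fell in 97 kPa roots too, by 0.63 and 0.58. The call of ATERDJ3B at 10 kPa was lost in 19 of 28 settings, among them quantile normalization, only the 12 arrays and the removal of any one array other than 48 h replicate 2, 72 h replicate 3 and 3 h replicate 1. Another 13 lists with 19 tested probe sets held no called gene.

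Part of the late minus early change was shared with 97 kPa roots, which were also older at the late times. The part that age played was not tested. Of the 2278 probe sets that rose at 10 kPa 844 also rose at 97 kPa, where 11.5% of all probe sets rose. The 844 are 37.1% of the 10 kPa and 44.1% of the 97 kPa increases. Of the 2569 that fell, 1229 also fell at 97 kPa, where 12.6% of all probe sets fell. The 1229 are 47.8% of the 10 kPa and 58.5% of the 97 kPa decreases. There were 97 probe sets called in opposite directions. The change itself differed between the pressures for 863 probe sets (5.18%), 365 higher (2.19%) and 498 lower (2.99%) at 10 kPa. Among them were 276 of the risen and 354 of the fallen probe sets at 10 kPa. The 24 genes with the largest changes were chosen by their change at 10 kPa, which is part of this difference. A high share passing was thus favoured by the choice. Of the 24, 8 of 12 increases and 9 of 12 decreases passed the test of the difference, against 2.19% higher and 2.99% lower of all probe sets. Those that did not were AT5G59305, AT5G38980, DFR, AT1G21500, AT1G13730, AT1G16040 and AT5G10130, whose changes at 97 kPa ran the same way, from 1.27 to 1.68 up and from -1.33 to -1.43 down. DFR, for example, rose by 2.75 at 10 kPa and by 1.52 at 97 kPa (difference 1.23, limma adjusted p = 0.278).

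**Figure D5:**
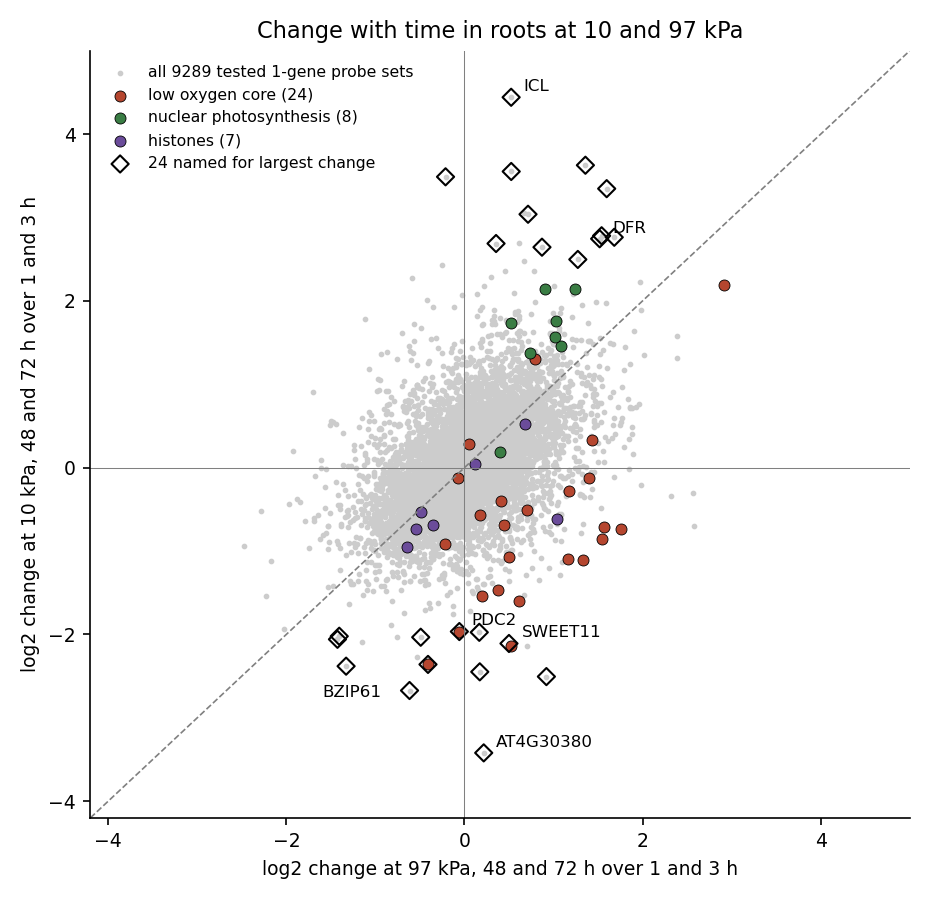
Late minus early change (log2) of the tested probe sets of 1 gene at 97 kPa on the x axis and at 10 kPa on the y axis, with low-oxygen, photosynthesis and histone genes coloured and the 24 largest named changes as diamonds. ICL (0.52 at 97 kPa, 4.44 at 10 kPa) and AT4G30380 (0.22, -3.42) lie far from the diagonal of equal change.

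The largest differences between the pressures also took in genes outside the 24. AT1G73120 rose by 1.78 at 10 kPa (difference 2.90), AT3G12900 by 2.28 (difference 2.86) and AT1G10640 by 2.43 (difference 2.67). AT1G10640 had 642.5, 963.9 and 2415 in late and 113.7, 168.6 and 349.4 in early 10 kPa roots, with a clear gap. On the negative side AT3G16530 had 4.062, 73.56 and 277.2 in late and 123.7, 267.5 and 770.1 in early 10 kPa roots, which overlapped, and fell by 2.14 (difference -2.85). AT5G26200 had 257.1, 547.7 and 1012 in late and 536.3, 603 and 933 in early 10 kPa roots, a change of -0.34 that did not pass, and its difference of -2.66 came with a rise of 2.32 at 97 kPa. HRA1 had a difference of -2.66 as well (limma adjusted p = 0.00801). The difference for BBM, -2.14 (limma adjusted p = 0.0413), lost its call in 18 of 32 alternative settings, and that for AT3G12900 in 9 of 32; among the settings without 1 array, those of 10 kPa 48 h replicate 2, 72 h replicate 1, 1 h replicate 2 and 3 h replicate 3 and of 97 kPa 48 h replicate 1 and 3 h replicate 1 ended both. BBM also lost it without 10 kPa 48 h replicate 3, 72 h replicate 3, 1 h replicate 1 and 3 h replicates 1 and 2 and without 97 kPa 72 h replicates 1 and 3, 1 h replicate 2 and 3 h replicate 3, and AT3G12900 without 97 kPa 72 h replicate 2 and 3 h replicate 2. The difference for AT2G43530 lost its call in 8 of 33, among them those without 10 kPa 72 h replicate 3, 1 h replicate 2 or 3 or 3 h replicate 3 and 97 kPa 48 h replicate 1 or 2 or 72 h replicate 1.

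Between 72 and 48 h the test called 26 probe sets (0.156%), of which 7 rose (0.042%) and 19 fell (0.114%), while 1876 had an unadjusted p below 0.05; leaving out 72 h replicate 1 gave 121, 48 h replicate 3 gave 64 and 72 h replicate 2 gave 63. BZIP61, low in all late arrays, had 118.2, 120.7 and 261.8 at 72 h and 34.38, 43.04 and 74.48 at 48 h, and was higher at 72 h by 1.52 (limma adjusted p = 0.00108). AT3G32040 had 121, 152.3 and 176.3 at 72 h and 6.986, 7.472 and 12.32 at 48 h, a difference of 3.15. AT1G33475 had 12.68, 14.39 and 33.19 at 72 h and 119.1, 155.3 and 184.6 at 48 h, a difference of -2.53. The 72 h arrays lay above all of 48 h for AT3G32040 and below all of 48 h for AT1G33475; means at 1 and 3 h were 65.79 and 70.93 for AT3G32040 and 103.6 and 70.03 for AT1G33475. AT2G21090 (2.67) and AT4G25250 (2.26) were higher and AT2G40815 (-2.34) and AT4G19200 (-2.27) lower at 72 h. Without 48 h replicate 1 the calls of AT3G32040, AT1G33475 and AT2G40815 were lost, without 72 h replicate 3 those of AT1G33475, AT2G40815 and AT2G21090, and without 48 h replicate 2 that of AT2G21090, 72 h replicate 2 that of AT3G32040 and 72 h replicate 1 that of AT2G40815.

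Between 3 and 1 h the test called 444 probe sets (2.66%), of which 129 rose (0.774%) and 315 fell (1.89%), while 2309 had an unadjusted p below 0.05; the number was 235 without 1 h replicate 1, 290 without 1 h replicate 2, 242 without 3 h replicate 2 and 249 without 3 h replicate 3. PDC2 had 1610, 1768 and 1855 at 3 h and 2950, 3386 and 3742 at 1 h and fell by 0.94 (limma adjusted p = 0.00752). SWEET11 fell by 1.19 (limma adjusted p = 0.0150). AT1G62500, one of the large late increases, was already higher at 3 h than at 1 h by 1.83. AT1G06320 (2.22) and JMJ32 (AT3G45880, 1.88) were higher at 3 h. AT4G16000 had 5.152, 10.87 and 15.04 at 3 h and 85.09, 109.2 and 122.7 at 1 h, far apart, a difference of -2.59. GAT1_2.1, a glutamine amidotransferase gene, by one of its probe sets, and AT1G34510 had differences of -2.67 and -2.22. The calls of AT1G34510, AT1G06320, GAT1_2.1, JMJ32 and AT1G62500 were each lost on removal of any of 3 to 5 single arrays, and that of AT4G16000 without 1 h replicate 1 or 3 h replicate 3.

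Shoots of the same pressure and times gave other changes for many of the leading root genes. The root minus shoot difference of the late minus early changes was called for 3017 of 17901 probe sets (16.9%), 1461 higher (8.16%) and 1556 lower (8.69%) in roots. Root and shoot arrays shared 29 tubes and are not independent there, which this fit did not take into account. With the tube as a random block 3207 were called. ICL rose by 4.44 in roots and had a change of 0.38 in shoots that did not pass (difference 4.06, limma adjusted p = 3.67e-05). AT5G48490 rose by 3.63 in roots with -0.26 in shoots (difference 3.89), and AT1G60590 by 3.49 with -1.06 in shoots (difference 4.54), neither shoot change passing. Among the decreases, EXLB2 fell by 3.42 in roots with 0.39 in shoots (difference -3.82), BZIP61 by 2.67 with 0.42 (difference -3.10) and AT5G46670 by 2.45 with 1.09 (difference -3.54), again with no shoot change that passed. For the other six genes with the largest differences the shoot change was the larger one. AT1G73120 rose by 1.78 in roots and fell by 2.13 in shoots (difference 3.91). AT1G62510 had 0.49 in roots and fell by 3.35 in shoots (difference 3.84), and AT2G27420 fell by 2.79 in shoots (difference 3.65). CSLA01, cellulose synthase-like A01, rose by 4.95 in shoots (difference -4.80), BGLU28, beta glucosidase 28, by 4.23 (difference -3.60) and OCT1, an organic cation or carnitine transporter, by 2.24 (difference -2.94). The test in shoots called 22% of its probe sets, with 10.4% up and 11.6% down. Of the 24 low-oxygen genes 4 rose and 5 fell there, and the root minus shoot difference was lower for 7 and higher for 1.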

How the data were processed

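Total RNA of 72 root and shoot samples was labelled with a 3′ IVT kit and hybridised to 1 ATH1 array each, per the labels' protocols. The authors deposited linear signal intensity, made with MAS5 and Expression Console of Affymetrix according to the submitters' processing notes, with no version stated. With 2% of probe sets trimmed at either end, every array averaged 500. No further normalization was applied. Of 22810 probe sets 64 are controls, 13513 name 1 gene in the given annotation (13502 matched RefSeq's gene table), 503 name several and 8730 are not listed there; only those of 1 gene are named. The number of arrays, 3 per group, limits the precision.

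Here log2(signal + 8.9) was fitted by limma 3.58.1 in R 4.3.3 (lmFit, eBayes with a variance trend), with 12 group means over 36 root arrays (24 residual degrees of freedom) and 24 over all 72 (48). A probe set was tested if 3 or more arrays had it at or above their 40th percentile, 16667 in roots and 17901 in both tissues. Tests were two-sided with Benjamini-Hochberg adjustment. The samples, lists and comparisons were chosen with earlier results of these data known, and 66 gene lists were used, of which 53 had a tested probe set. The text names the 12 largest changes each way among called probe sets of 1 gene whose 6 late values all lay beyond the 6 early ones, 6 each way for the differences from 97 kPa and from shoots, 3 each way for 72 minus 48 h and 3 minus 1 h, and up to 4 called members of a list; further members of short lists were picked after their values were seen. Alternatives were quantile normalization, other pseudocounts (none, with values floored at 1.87, and 50.8), a filter at the 60th percentile or none, a replicate block, a 2-fold minimum, a fit with no variance trend, the tube as a random block, the 3′ to 5′ ratio and the shoot-enriched signal as covariates, each replicate left out, single times, only the 12 arrays, and leaving out the 2 arrays numbered apart. The procedure was tested on simulated data. Array numbers in the descriptions followed time within 10 kPa roots, except for 72 h replicate 2, so processing order and time cannot be told apart.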

Additional observations from a re-analysis of the deposited data

Results flagged for a closer look

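In 4 genes 1 array lay far from the other 5 of its group, a pattern that chance gives in about 1 of 20 groups. Whether 4 is more than chance would give over all groups searched was not tested. AT3G14395 had its highest late signal, 4167, in 72 h replicate 3, with a gap to the next array of 0.703 of the group's range. SWEET11 had its lowest late signal, 268.8, in the same array (0.75 of the range). AT5G10130 had its lowest late signal, 97.96, in 48 h replicate 3 (0.735), and BBM its lowest early signal, 115.2, in 1 h replicate 3 (0.649).

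List members such as AT4G17260 and AKINBETA1 passed limma's test of the difference between 10 and 97 kPa roots, as given above. The genes counted here were named for the largest changes at 10 kPa, or by that difference itself. For 23 of these the late minus early change differed between 10 and 97 kPa roots by the same test. It was more positive at 10 kPa for ICL (3.918), AT1G60590 (3.7), AT5G14650 (3.027), AT1G73120 (2.896), AT3G12900 (2.863), AT1G10640 (2.673), AT3G63360 (2.333), AT1G62500 (2.325), AT5G48490 (2.269), AT3G14395 (1.774) and AT2G43530 (1.749). It was more negative for AT4G30380 (-3.637), AT1G70985 (-3.426), AT3G16530 (-2.85), AT3G10040 (-2.661), AT5G26200 (-2.658), AT5G46670 (-2.621), SWEET11 (-2.609), BBM (-2.142), BZIP61 (-2.056), AT2G41730 (-1.951), PDC2 (-1.909) and AT3G49190 (-1.543). The calls of BBM, AT3G12900 and AT2G43530 were lost in 18 of 32, 9 of 32 and 8 of 33 alternative settings.

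The 12 genes named for the root minus shoot difference at 10 kPa were chosen by that difference. Differences were positive for AT1G60590 (4.544), ICL (4.059), AT1G73120 (3.912), AT5G48490 (3.89), AT1G62510 (3.844) and AT2G27420 (3.648). They were negative for OCT1 (-2.941), BZIP61 (-3.095), AT5G46670 (-3.535), BGLU28 (-3.604), AT4G30380 (-3.815) and CSLA01 (-4.798).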

How the results depend on the processing

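Late minus early in 10 kPa roots called 4105 to 4654 probe sets without 1 replicate, 3042 with the 3′ to 5′ ratio as a covariate, 1069 with the shoot-enriched signal as a covariate and 1069 at a 2-fold minimum; the cause of these moves was not tested. Against 1 h alone it called 3164, with 48 h alone 3181. Quantile normalization moved the share of higher calls to 43% and the median change to -0.0497. The 97 kPa comparison called 1923 with the ratio covariate, 662 at 2-fold and 3223 to 4217 without 1 replicate. The difference between pressures called 391 at 2-fold and 698 to 977 without 1 replicate, 72 minus 48 h 45 with quantile normalization, 17 at 2-fold and 24 to 121 without 1 replicate, 3 minus 1 h 207 at 2-fold and 235 to 357 without 1 replicate, and root minus shoot 1191 at 2-fold and 2687 to 3072 without 1 replicate. Of 104 called genes followed, 78 lost the call with the shoot-enriched signal, 10 of them among the 24 largest changes, which kept it in every other setting that tested them.

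Signs turned for ATERDJ3B against 3 h alone (0.013), EXPA7 against 1 h alone (-0.054) and EXPA18 without 1 replicate (-0.21 to 0.023), with 48 h alone (0.11), against 3 h alone (0.48) and with the shoot-enriched signal (1.29). With that covariate NDB1 was 0.023, LHCB4.2 -0.98, PGY1 0.048 and cox2 -0.23.

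Replicate numbers paired the arrays only weakly. Correlations of same-numbered deviations were -0.0196 to 0.175, most of them positive and 1 of 18 above 0.1. Those of other-numbered deviations were -0.106 to 0.0525. The highest same-numbered ones were those of 48 h with 72 h, at 0.0759, 0.072 and 0.175. The replicate block called 4876 (97 kPa 4027, difference 893, 72 minus 48 h 26, 3 minus 1 h 480, root minus shoot 3086), and the tube as a random block 3207.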
